A study of Mus musculus with 6 samples.

Results

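The 30 genes described here act in the G2 phase of the cell cycle and in mitosis: mitotic cyclins and their kinase, the kinases and motors that build the spindle, checkpoint genes, and proteins of centromeres and condensing chromosomes. The rule took them by gene symbol and set no cut on measured values, but the genes were chosen with earlier results of these data known. They are 30 of the 24421 genes in the deposited count table. The 6 RNA-seq libraries came from lineage-depleted bone marrow, which is marrow passed over columns that retain cells carrying the surface markers of mature blood lineages. All 6 are from C57BL/6 mice of genotype Dek -/-, so the controls carry the Dek knockout too. The vehicle group had 3 libraries and the DEK group, whose cells received exogenous DEK before RNA isolation, had 3. DEK is a nuclear chromatin-binding protein that some cells also release. The labels used here give no dose, exposure time, source of the DEK or age of the animals, and do not say whether the libraries of a group stem from separate animals or how the knockout was made. If they do not stem from separate animals, p-values measure only the spread between these libraries, which may be technical. The comparison asks whether levels of these RNAs differed between Dek -/- marrow with and without added DEK.

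Entry into mitosis depends on cyclin B bound to the kinase CDK1. Polo-like and Aurora kinases then drive centrosome separation, chromosome alignment and cytokinesis, and the spindle checkpoint holds back the anaphase-promoting complex until all chromosomes are attached. Transcripts of these genes accumulate late in the cell cycle, in part through the DREAM and MuvB-FOXM1 complexes, so their summed RNA is widely used as a readout of cycling cells. Most long-term stem cells in marrow are quiescent, whereas progenitors and early granulocyte and erythroid precursors divide. In bulk RNA, fewer dividing cells and less of these RNAs per cell cannot be told apart.

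All 30 genes had reads in every library, from 58 counts (Cks2 in DEK 3) to 25367 (Top2a in DEK 2), at depths of 34875736 to 49128378 counts per library, and all 30 were among the 13803 genes that passed the filter on low counts. Levels are counts per 1000000 counts (CPM) after TMM scaling, and RPKM, which also divides by exon length, where genes are compared with each other. Vehicle 3 and DEK 3 differed from the other libraries. Late neutrophil markers (11 genes, such as S100a9) summed to 67072 CPM in vehicle 3 and 64008 CPM in DEK 3, against 6154 to 8134 CPM in the other 4, with no marker at 0 in any library. Neutrophil and eosinophil markers were thus present in marrow labelled as lineage-depleted. Stem and progenitor markers (12 genes) were detected in every library, at 714 to 1289 CPM in sum, and this sum was lowest in the libraries numbered 3. Not every marker followed the sum, as Ly6a was highest in DEK 3, at 170 CPM. Vehicle 1 was set apart by Rn45s, a precursor of ribosomal RNA, at 4.89% of its counts against 0.159% to 0.331% elsewhere. Reads at Dek itself were found in all 6 libraries, at 16.5 to 21.8 CPM, and cannot check the labels because both groups carry the knockout and the deleted part is not given.

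The mitotic genes had no common direction between the DEK and vehicle groups. Added together, they came to 2135, 2455 and 3661 CPM in vehicle 1, 2 and 3 and 2835, 2983 and 2900.0 CPM in DEK 1, 2 and 3. The means were 2750.1 ± 805 CPM (SD, n = 3) with vehicle and 2906 ± 74.2 CPM (SD, n = 3) with DEK. All 3 DEK libraries lay inside the span of the vehicle libraries, of which vehicle 1 was the lowest and vehicle 3 the highest of the 6. Mki67 and Top2a, the members with the most counts in vehicle 3, made up 15.5% and 17.0% of the sum there. Without them the sums were 1629, 1903 and 2473 CPM with vehicle and 2211, 2284 and 2003 CPM with DEK, again with vehicle 1 lowest and vehicle 3 highest.

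**Figure D1:**
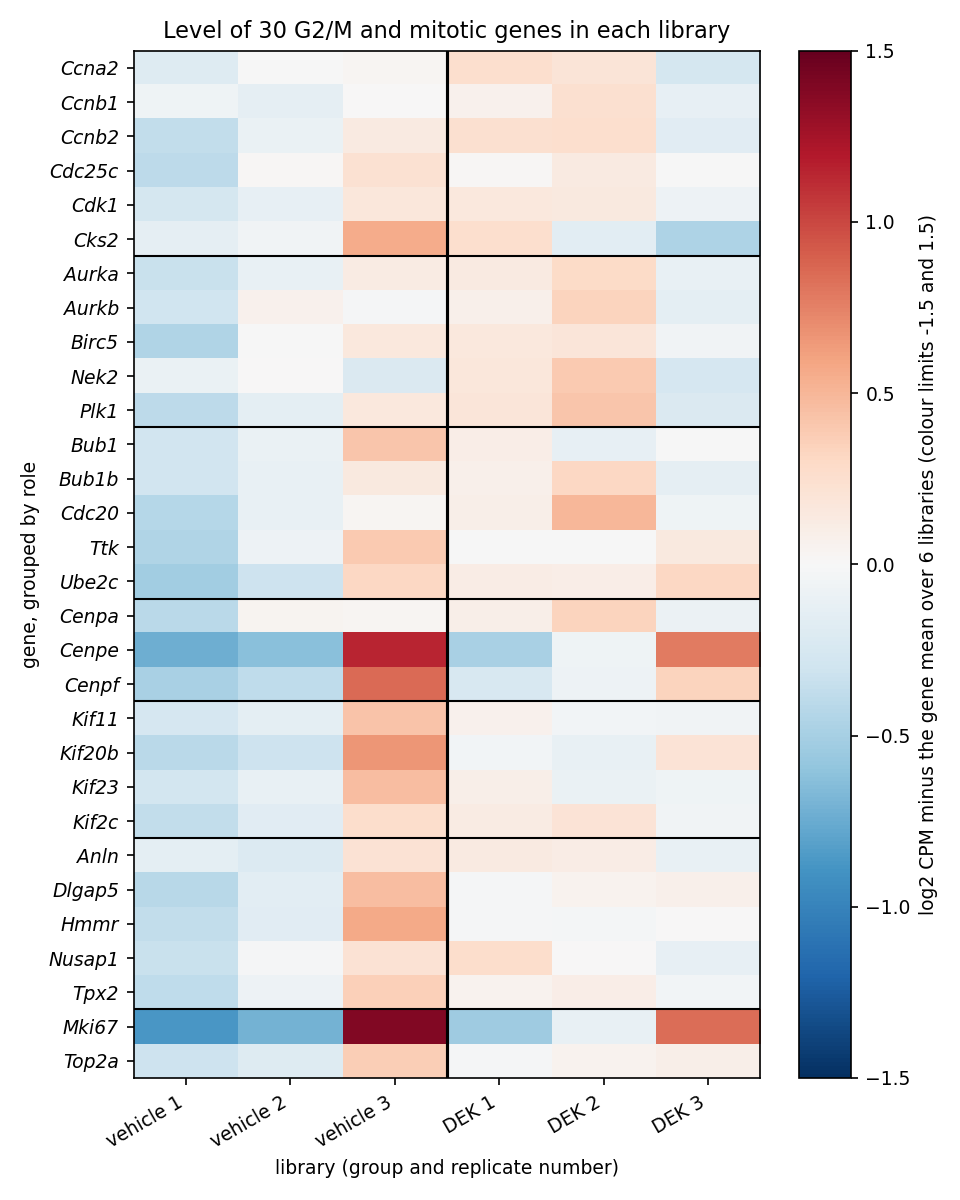
Log2 CPM of each of the 30 genes (vertical axis, grouped by role) in each of the 6 libraries (horizontal axis), minus the gene's own mean over the 6. Vehicle 1 is the lowest library for 25 of the 30 genes and vehicle 3 the highest for 18, with the highest values at Mki67, Cenpe and Cenpf in vehicle 3.

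Set side by side by replicate number, the libraries split. The DEK library was above the vehicle library in replicates 1 and 2 and below it in replicate 3. The median log2 difference over the 30 genes, DEK minus vehicle, was 0.39 in replicate 1, 0.27 in replicate 2 and -0.31 in replicate 3. Over all genes tested it was -0.02, 0.01 and -0.0028. In replicate 1, 30 of 30 were higher with DEK (46.6% of all genes tested), and 29 of them were higher by more than counting error at the 95% level (23.5% of all genes). In replicate 2, 28 of 30 were higher (51.1% of all genes), 24 beyond counting error (32.4%), and Bub1 and Cks2 lay below 0 within it. In replicate 3, 30 of 30 were lower (50.5% of all genes), 28 beyond counting error (26.5%), and Ube2c and Nek2 within it. Other scalings kept these directions except that 1 member, Ube2c, was above 0 in replicate 3 with DESeq2's size factors (RLE), and 26 of 30 instead of 28 were above 0 in replicate 2 with total counts or upper quartiles. The sequence of higher, higher and lower was shown by 28 of 30 genes, against 12% of all genes, and by 22 with each step beyond counting error, against 2.58%. No member had the same direction in all 3 replicates (34.2% of all genes did), and no member had groups that did not overlap (3.78% of all genes were separated with DEK higher and 3.41% with DEK lower). These counts describe 6 libraries, since genes that move together are not independent of each other, and the pattern was known when the genes were chosen. Counting error does not include the variation between cultures or animals.

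**Figure D2:**
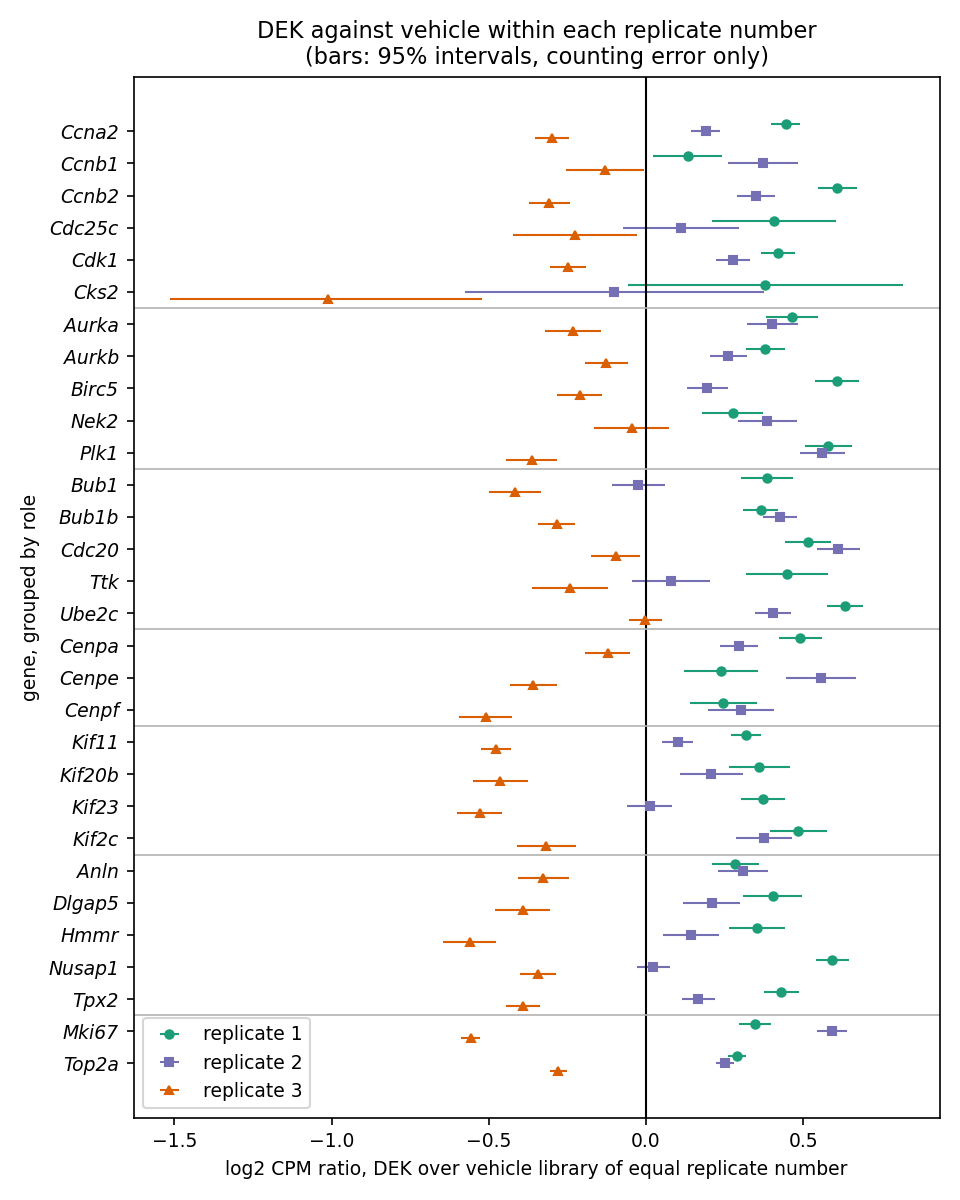
Log2 CPM ratio of the DEK over the vehicle library of equal replicate number (horizontal axis) for each of the 30 genes (vertical axis, grouped by role), with 95% intervals that cover counting error only. Replicate 3 (triangles) lies at or below 0 for all 30 genes, replicate 1 (circles) above 0 for all 30 and replicate 2 (squares) above 0 for 28.

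Tested as 2 groups with edgeR's quasi-likelihood test and no block, 0 of 30 genes passed a Benjamini-Hochberg adjusted p of 0.05, and so did 0% of the 13803 genes tested. At an unadjusted p under 0.05 there were 360 genes in all and 0 members. DESeq2 called 0 members too (0.406% of all genes called), as did limma-voom (0% of all genes). The adjusted p was 0.9999 for each of the 30 genes. Log2 fold changes ran from -0.25 ± 0.33 (SE) for Cks2 to 0.35 ± 0.19 for Cdc20, with a median of 0.08 and 21 of 30 above 0. With the replicate number as a block, which tests the mean difference within equal numbers, 0 of 30 passed again (1.28% of all genes called), at adjusted p from 0.272 for Ube2c to 0.991 for Cenpf. The median was then 0.12, with 25 of 30 above 0. Leaving out 1 library moved the unblocked median from -0.01 (without vehicle 1) to 0.29 (without vehicle 3, when 30 of 30 lay above 0), with no member called in either.

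The cyclins and their kinase (6 genes) had median differences of 0.41, 0.23 and -0.27 log2 in replicates 1, 2 and 3. None passed the test in either fit. Ccnb1 encodes cyclin B1, whose complex with CDK1 triggers entry into mitosis (chromosome 13, 100778739 to 100786486, minus strand, mm10). It was measured at 28.0, 26.7 and 29.3 CPM in vehicle 1, 2 and 3 and 30.6, 34.6 and 26.8 CPM in DEK 1, 2 and 3. DEK 2 was the highest and vehicle 2 and DEK 3 the lowest, over a narrow range. The log2 fold change was 0.13 ± 0.14 (SE). At least 95% identity over about 52.0% of its transcript was found in processed pseudogenes without a row in the table (Ccnb1-ps, Gm12856 and Gm8416), so its count is uncertain. Ccnb2, the cyclin B2 gene (chromosome 9, 70407689 to 70421554, minus strand), reached 76.1, 91.5 and 108 CPM in vehicle 1, 2 and 3 and 116, 117 and 87.3 CPM in DEK 1, 2 and 3. DEK 1 and 2 were above every vehicle library, while DEK 3 fell between vehicle 1 and vehicle 2. Its log2 fold change was 0.22 ± 0.18, and its differences within replicates 1, 2 and 3 were 0.61, 0.35 and -0.31.

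Ccna2 encodes cyclin A2, which serves both S phase and early mitosis (chromosome 3, 36564865 to 36571996, minus strand). Its level was 141, 161 and 164 CPM in vehicle 1, 2 and 3 and 191, 184 and 134 CPM in DEK 1, 2 and 3. Here DEK 3 was the lowest of all 6 libraries and DEK 1 and 2 the highest, so that DEK spanned both ends. Its exons overlap Exosc9 on the other strand, and the counting did not use strand, so the value is uncertain. Cdk1, the kinase itself (chromosome 10, 69336635 to 69352912, minus strand), stood at 104, 115 and 141 CPM in vehicle 1, 2 and 3 and 139, 139 and 118 CPM in DEK 1, 2 and 3. Vehicle 3, DEK 1 and DEK 2 were nearly equal and vehicle 1 was the lowest. Its log2 fold change was 0.14 ± 0.15. Cks2, a small subunit that binds CDK1 (chromosome 13, 51645232 to 51650662, plus strand), was the least abundant member per length, at 2.73 RPKM on average. It showed 1.68, 1.78 and 2.71 CPM in vehicle 1, 2 and 3 and 2.19, 1.66 and 1.34 CPM in DEK 1, 2 and 3, so that DEK 3 was the lowest and vehicle 3 the highest. The replicate 3 difference of -0.99 log2 was the lowest of any member there, from 58 counts in DEK 3. Its 3 processed pseudogene copies (Gm12891, Gm15452 and Gm19945) match 34.7% of the transcript, so its count is uncertain as well. Cdc25c, the phosphatase that activates CDK1, lay between 7.83 and 11.99 CPM, both in vehicle libraries.

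The mitotic kinases and survivin (5 genes) had medians of 0.46, 0.39 and -0.21 log2 in replicates 1, 2 and 3. Plk1 encodes polo-like kinase 1, which acts from mitotic entry to cytokinesis (chromosome 7, 122159437 to 122169875, plus strand). It was at 50.7, 60.0 and 74.0 CPM in vehicle 1, 2 and 3 and 75.7, 88.6 and 57.5 CPM in DEK 1, 2 and 3. DEK 1 and 2 exceeded all vehicle libraries and DEK 3 was below vehicle 2. The log2 fold change was 0.26 ± 0.21, with differences of 0.58, 0.56 and -0.36 within replicates 1, 2 and 3. Aurka, the centrosomal Aurora A kinase (chromosome 2, 172356190 to 172370570, minus strand), gave 42.9, 49.9 and 58.6 CPM in vehicle 1, 2 and 3 and 59.2, 66.0 and 49.9 CPM in DEK 1, 2 and 3. Vehicle 2 and DEK 3 were nearly equal, and DEK 2 was the highest. Aurkb, the Aurora B kinase of the chromosomal passenger complex (chromosome 11, 69045643 to 69051662, plus strand), gave 77.3, 99.9 and 94.1 CPM in vehicle 1, 2 and 3 and 100.5, 119.8 and 86.2 CPM in DEK 1, 2 and 3. It is among the 3 genes in which vehicle 3 was not the highest vehicle library, together with Cenpa and Nek2. Birc5 encodes survivin, which holds Aurora B at the centromere (chromosome 11, 117849237 to 117855743, plus strand). Its libraries stood at 59.4, 80.5 and 90.7 CPM in vehicle 1, 2 and 3 and 90.5, 92.2 and 78.3 CPM in DEK 1, 2 and 3, with vehicle 1 alone well below the others. Log2 fold changes were 0.21 ± 0.16 for Aurka, 0.18 ± 0.17 for Aurkb and 0.18 ± 0.18 for Birc5. Nek2, a kinase of centrosome separation, ranged from 30.3 CPM in DEK 3 to 47.4 CPM in DEK 2.

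Genes of the checkpoint and of anaphase (5 genes) had medians of 0.45, 0.40 and -0.24 log2. Cdc20 encodes the activator of the anaphase-promoting complex that the checkpoint restrains (chromosome 4, 118432901 to 118437343, minus strand). It was found at 53.2, 66.3 and 73.3 CPM in vehicle 1, 2 and 3 and 76.0, 101 and 68.5 CPM in DEK 1, 2 and 3. All DEK libraries lay above vehicle 1 and 2, and DEK 3 lay below vehicle 3. Its log2 fold change of 0.35 ± 0.19 was the highest among members and had the smallest unadjusted p, 0.113. Its exons overlap Elovl1 on the other strand, which leaves its count uncertain. Ube2c, the ubiquitin-conjugating enzyme of the same complex (chromosome 2, 164769929 to 164772902, plus strand), was the most abundant member per length, at 134 RPKM on average. Its libraries held 84.4, 98.4 and 151 CPM in vehicle 1, 2 and 3 and 131, 130.1 and 151 CPM in DEK 1, 2 and 3. Vehicle 3 and DEK 3 were equal within counting error and the highest, and vehicle 1 was the lowest. The log2 fold change was 0.30 ± 0.23 without the block and 0.34 ± 0.12 with it. Bub1b, the BubR1 checkpoint gene (chromosome 2, 118598211 to 118641592, plus strand), was at 97.5, 110.3 and 132 CPM in vehicle 1, 2 and 3 and 126, 148 and 108 CPM in DEK 1, 2 and 3. DEK 2 was the highest and vehicle 1 the lowest, and its log2 fold change was 0.17 ± 0.17. Bub1 and Ttk, the checkpoint kinases, ranged from 45.3 to 73.9 CPM and from 17.7 to 31.9 CPM, in both cases from vehicle 1 to vehicle 3.

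Top2a encodes topoisomerase II alpha, which untangles sister chromatids (chromosome 11, 98992947 to 99024189, minus strand). At 388, 420.0 and 621 CPM in vehicle 1, 2 and 3 and 474, 499.9 and 512 CPM in DEK 1, 2 and 3, its 3 DEK libraries differed little and lay between vehicle 2 and vehicle 3. Its log2 fold change was 0.06 ± 0.20. Mki67 encodes Ki-67, the coat protein of mitotic chromosomes used as a proliferation marker (chromosome 7, 135689788 to 135716379, minus strand). It gave 118, 132 and 566 CPM in vehicle 1, 2 and 3 and 149.9, 199 and 385 CPM in DEK 1, 2 and 3. Both libraries numbered 3 were far above the others, and the log2 fold change of -0.15 ± 0.70 had the largest SE of the 30 genes. Within equal numbers its differences were 0.35, 0.59 and -0.56. Centromere genes followed Mki67 in part. Cenpf, a kinetochore protein of G2 and mitosis (chromosome 1, 189640614 to 189688086, minus strand), was at 28.1, 30.3 and 70.8 CPM in vehicle 1, 2 and 3 and 33.3, 37.3 and 49.7 CPM in DEK 1, 2 and 3, again with the libraries numbered 3 highest in each group. Its log2 fold change was -0.10 ± 0.39. Cenpe, the kinetochore motor, ranged from 23.5 CPM in vehicle 1 to 85.6 CPM in vehicle 3. Cenpa, the centromeric histone H3 variant, ranged from 65.1 CPM in vehicle 1 to 109 CPM in DEK 2.

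The kinesins (4 genes) had medians of 0.37, 0.15 and -0.47 log2, and the spindle and cytokinesis genes (5 genes) 0.40, 0.17 and -0.39. Kif11 encodes Eg5, the motor that pushes spindle poles apart (chromosome 19, 37376403 to 37421859, plus strand). Its values were 135, 146 and 216 CPM in vehicle 1, 2 and 3 and 169, 156 and 155 CPM in DEK 1, 2 and 3. Vehicle 3 stood above the rest, and the 3 DEK libraries differed little. The log2 fold change was -0.05 ± 0.19. Kif23, a motor of the central spindle needed for cytokinesis (chromosome 9, 61917278 to 61946799, minus strand), showed 60.9, 68.5 and 102 CPM in vehicle 1, 2 and 3 and 78.8, 69.1 and 70.5 CPM in DEK 1, 2 and 3. Vehicle 3 was again the highest, and DEK 2 equalled vehicle 2 within counting error. Hmmr encodes a spindle-associated protein also known as RHAMM (chromosome 11, 40701388 to 40733437, minus strand). With 38.7, 44.3 and 73.8 CPM in vehicle 1, 2 and 3 and 49.4, 48.9 and 50.05 CPM in DEK 1, 2 and 3, its DEK libraries were almost level while its vehicle libraries spread widely. Kif23 and Hmmr had log2 fold changes of -0.08 ± 0.20 and -0.08 ± 0.24, and with Cks2 they were the lowest within equal numbers, at -0.05 ± 0.17, -0.02 ± 0.18 and -0.23 ± 0.30. Tpx2, which activates Aurora A on spindle microtubules, followed the mean of the other members most closely, with a Pearson correlation of 0.98 over the 6 libraries. Over the 30 genes this correlation had a median of 0.82 and was above 0.8 for 17, and Nek2 was lowest at 0.03. These values describe 6 libraries in which vehicle 1 and vehicle 3 set most of the range. Nusap1 overlaps Oip5 on the other strand, so its count is uncertain.

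Most members varied more between vehicle than between DEK libraries. The SD of log2 CPM was larger in the vehicle than in the DEK group for 23 of 30 members, against 40.1% of all genes. The median SD was 0.32 with vehicle and 0.17 with DEK, while over all genes it was 0.24 and 0.27. With 3 libraries a group this difference in spread was not tested. Vehicle 3 was the highest vehicle library for 27 members (43.2% of all genes) and the highest of all 6 libraries for 18 (19.7%), and vehicle 1 the lowest of all 6 libraries for 25 (11.7%). Among DEK libraries, DEK 3 was the lowest for 19 members (42.2%) and the highest for 9 (39.0%).

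Calls of members depended on the libraries numbered 3. With replicates 1 and 2 alone and the number as a block, 10 of 30 members passed as higher with DEK and 0 as lower by edgeR's quasi-likelihood test with Benjamini-Hochberg adjustment (2.37% of all genes called higher, 2.27% lower). The 10 were Aurka, Birc5, Bub1b, Ccnb2, Cdc20, Cenpa, Kif2c, Mki67, Plk1 and Ube2c. Among them were 3 of the 5 genes grouped as mitotic kinases and survivin, and 3 of 5 checkpoint and anaphase genes. The rest were 1 cyclin, 1 centromere gene, 1 kinesin and Mki67. Log2 differences were 0.56 ± 0.12 for Cdc20, 0.57 ± 0.12 for Plk1, 0.52 ± 0.12 for Ube2c, 0.48 ± 0.12 for Ccnb2 and 0.47 ± 0.12 for Mki67, and the median over all 30 was 0.31. With replicate 3 kept, the blocked fit also put these 10 above 0, from 0.13 for Mki67 to 0.35 for Cdc20, with none called. Leaving out replicate 3, where all members lay below 0, was bound to raise the values, and the pattern was known beforehand. These calls are therefore a description of how the result depends on replicate 3, not support for a difference between the groups. With the same 4 libraries and no block, the median was 0.31 and 0 of 30 were called (1.22% of all genes called). At an unadjusted p under 0.05 in that edgeR fit there were 19 members, beside 1444 of all 13809 genes tested. The fit with the block called 0 members without replicate 1 (1.3% of all genes called) and 0 without replicate 2 (0%). In replicate 3 all 10 lay below 0, Ube2c within counting error. Of the marker lists, 6 of 8 mast cell and basophil markers and 7 of 9 eosinophil markers were called lower in the same blocked fit of replicates 1 and 2, at medians of -0.50 and -0.55 log2. Of 11 monocyte and macrophage markers, 2 were called higher (Cx3cr1 and Ly6c2) and 3 lower (C1qb, C1qc and Mertk) in that fit. Lcn2 and Ltf of the late neutrophil markers were called higher, and Hlf of the stem and progenitor markers lower. Late neutrophil markers had a median of 0.03 there, and differed instead between the numbers, at 0.636% to 0.857% of counts in replicates 1 and 2 and 5.75% to 6.46% in the libraries numbered 3. The part of these markers in the result was not tested.

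The 3 longest members were higher in the libraries numbered 3 than in the others by more than any other member, in both groups, a description chosen after the values were seen. Mki67 in replicate 3 was 4.53-fold the mean of replicates 1 and 2 with vehicle and 2.20-fold with DEK. For Cenpe the values were 3.51-fold and 2.06-fold, for Cenpf 2.43-fold and 1.41-fold, and for Kif20b, a kinesin of cytokinesis, 2.03-fold and 1.21-fold. Mki67, Cenpe and Cenpf have summed exon lengths of 10075, 7813 and 11122 bases and are the 3 members of at least 6000 bases. With DEK, some shorter members lay as far from 0 as Cenpf but below it, at -0.54 log2 for Nek2 and -0.51 for Plk1, against 0.50 for Cenpf. Over the 30 members the log2 ratio of replicate 3 to the mean of replicates 1 and 2 had a median of 0.48 with vehicle and -0.21 with DEK. Across members it correlated with log2 exon length at Pearson's r of 0.59 with vehicle and 0.65 with DEK, and across 12109 genes of at least 1 CPM at 0.03 in both. Without the 3 longest, over the remaining 27 members, r was 0.21 with vehicle and 0.37 with DEK. These are correlations across genes of the same libraries, not across replicates. The part of exon length in these values was not tested.

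**Figure D3:**
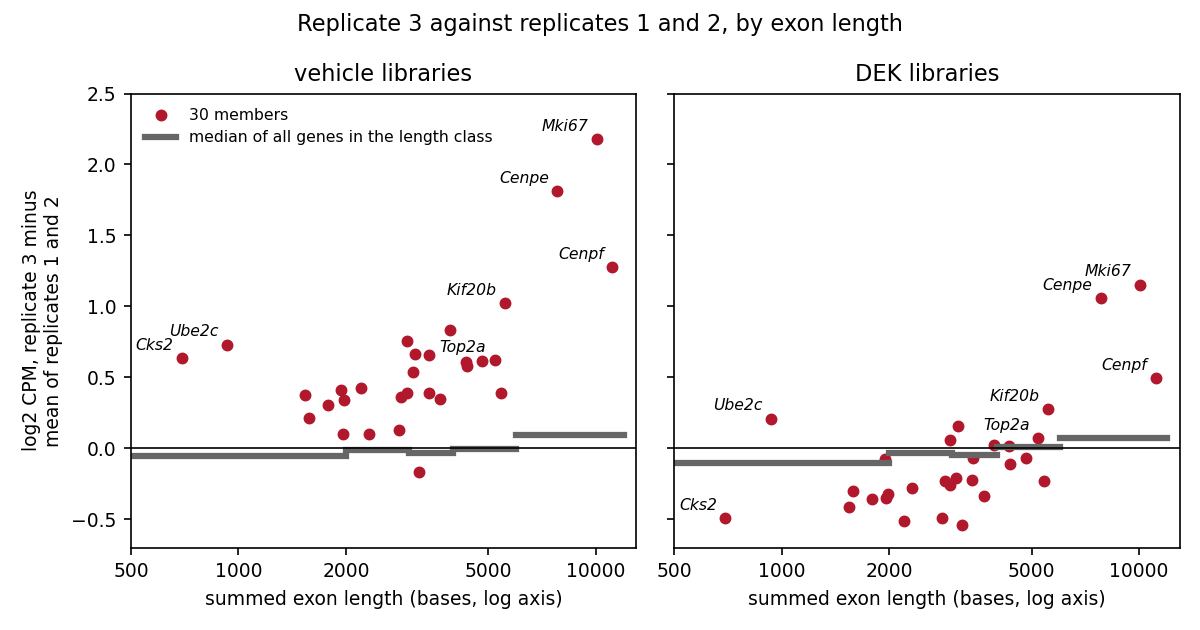
Log2 CPM of replicate 3 minus the mean of replicates 1 and 2 (vertical axis) against summed exon length in bases (horizontal log axis) for the 30 genes, in vehicle (left) and DEK libraries (right); grey lines are medians of all genes in 5 length classes. Mki67, Cenpe and Cenpf, the 3 longest, lie highest in both groups, while most other members lie above the grey lines with vehicle and below them with DEK.

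Upstream sequences of members are shown to display a pair of promoter elements known from genes of late cell cycle. One is the CHR (cell cycle genes homology region), searched as TTTGAA and TTCGAA, and the other the NF-Y box, searched as CCAAT, each on both strands in the 250 bases before the RefSeq start (build GRCm38.p6). Of the 30 members, 25 had an entry. The CHR was found in 9 of 25 (36%), against 17.1% of 32851 RefSeq windows of the same length. For TTTGAA alone the counts were 8 of 25 (32%) against 16%, and for TTCGAA 2 of 25 (8%) against 1.34%. At least 1 NF-Y box was found in 20 of 25 (80%), against 33.9%, and at least 2 in 14 of 25 (56%), against 10.1%. Both elements were present in 8 of 25 (32%), against 6.02%. A match is a description of the letters, not a binding site. Ccna2, Cdc25c, Dlgap5, Tpx2 and Aurkb had no entry. The 6 most abundant members per length with both elements are printed 5′ to 3′ in the direction of transcription, with matches in capitals. In Ube2c a pair of NF-Y boxes on opposite strands overlap.
Ube2c, chr2:164769679-164769928, plus strand: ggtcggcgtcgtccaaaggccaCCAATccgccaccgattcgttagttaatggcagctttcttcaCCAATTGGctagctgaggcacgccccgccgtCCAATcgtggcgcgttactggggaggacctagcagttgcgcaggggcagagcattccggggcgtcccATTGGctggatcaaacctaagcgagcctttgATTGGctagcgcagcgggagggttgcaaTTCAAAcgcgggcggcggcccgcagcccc
Top2a, chr11:99024190-99024439, minus strand: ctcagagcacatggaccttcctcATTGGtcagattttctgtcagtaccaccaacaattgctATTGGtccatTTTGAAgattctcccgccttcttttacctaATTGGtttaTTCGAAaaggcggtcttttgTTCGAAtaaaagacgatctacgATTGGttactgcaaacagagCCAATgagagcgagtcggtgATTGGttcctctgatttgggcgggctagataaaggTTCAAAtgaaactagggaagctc
Ccnb2, chr9:70421555-70421804, minus strand: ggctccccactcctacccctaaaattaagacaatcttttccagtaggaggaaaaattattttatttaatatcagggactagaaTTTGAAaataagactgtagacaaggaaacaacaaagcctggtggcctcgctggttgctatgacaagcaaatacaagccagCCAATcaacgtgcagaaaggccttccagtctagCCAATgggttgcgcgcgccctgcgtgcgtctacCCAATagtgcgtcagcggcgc
Cdk1, chr10:69352913-69353162, minus strand: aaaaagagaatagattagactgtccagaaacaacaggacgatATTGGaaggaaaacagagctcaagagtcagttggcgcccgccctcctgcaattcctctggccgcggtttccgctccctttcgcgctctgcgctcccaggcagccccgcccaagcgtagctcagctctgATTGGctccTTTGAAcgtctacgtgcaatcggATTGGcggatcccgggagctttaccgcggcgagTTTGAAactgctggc
Cdc20, chr4:118437344-118437593, minus strand: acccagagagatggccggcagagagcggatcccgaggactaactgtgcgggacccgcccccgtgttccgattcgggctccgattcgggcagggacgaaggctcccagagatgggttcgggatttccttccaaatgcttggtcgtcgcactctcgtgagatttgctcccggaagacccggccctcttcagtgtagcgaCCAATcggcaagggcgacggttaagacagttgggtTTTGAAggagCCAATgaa
Kif11, chr19:37376132-37376381, plus strand: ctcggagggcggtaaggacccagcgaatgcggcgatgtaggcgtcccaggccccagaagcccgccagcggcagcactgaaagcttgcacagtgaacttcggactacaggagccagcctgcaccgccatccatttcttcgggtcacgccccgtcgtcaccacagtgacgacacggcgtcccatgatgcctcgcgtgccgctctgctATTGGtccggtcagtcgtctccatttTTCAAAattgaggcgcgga

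In Cdk1, Cdc20 and Kif11 a CHR lay within 20 bases of the start, and in Ube2c and Top2a within 30. Ube2c and Top2a, the members with the highest RPKM, had 6 NF-Y boxes each, Ccnb2 and Cdk1 had 3, Cdc20 had 2 and Kif11 had 1. Nusap1, Birc5, Anln and Kif20b had neither element. Whether the elements bear on the levels of these genes was not tested.

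**Figure D4:**
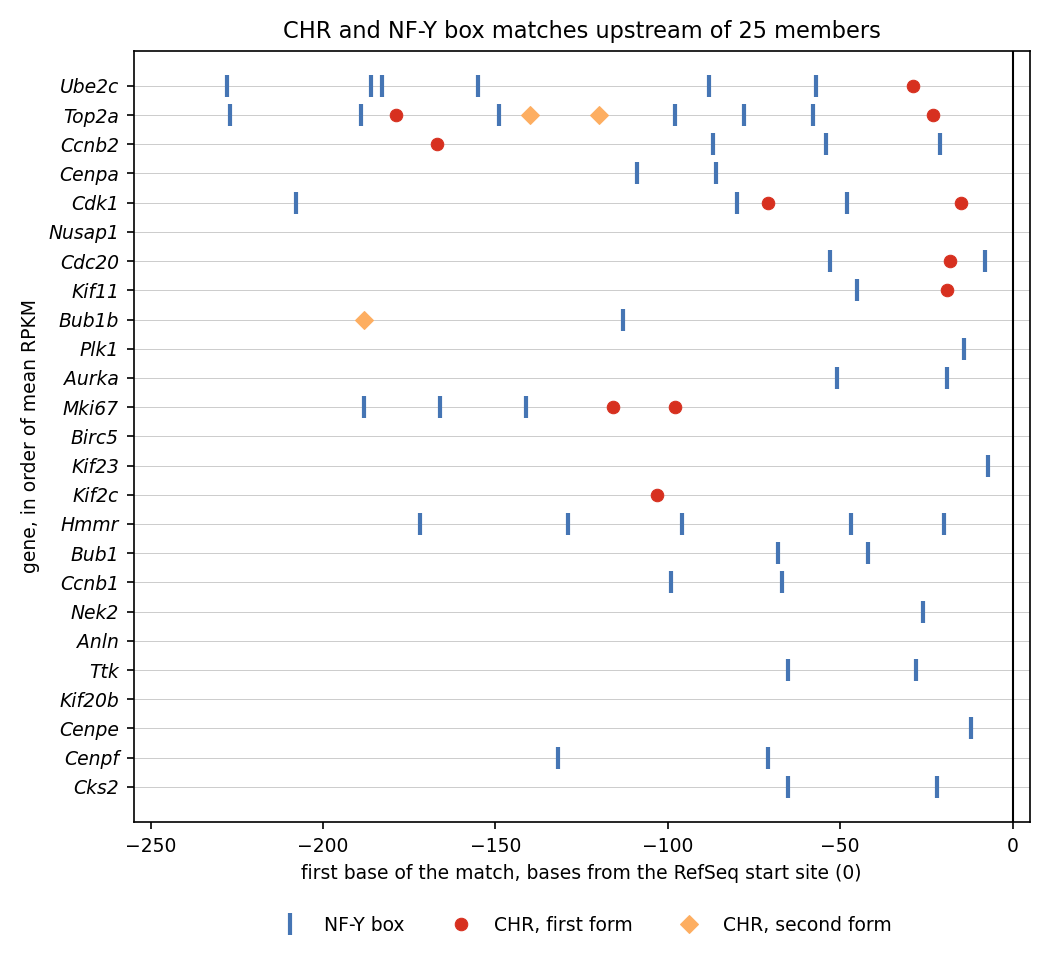
Positions of CHR matches (circles and diamonds for its 2 forms) and NF-Y box matches (bars) in bases from the RefSeq start at 0 (horizontal axis), for the 25 members with an entry, in order of mean RPKM (vertical axis). NF-Y boxes appear in 20 of the 25 genes and CHR matches in 9, several of them within 30 bases of the start.

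Further genes of mitosis, from a list of 85 others, followed the members. Their median differences were 0.29, 0.17 and -0.32 log2 in replicates 1, 2 and 3, and 58 of 85 were higher, higher and lower (68.2%). The unblocked test called 0 of the 85 (0% of all genes). With the block 1 of 85 rose (1.18%), Fzr1, and 0 fell, a share near the 1.28% of all genes called there and no result about the list. Fzr1 encodes Cdh1, the activator of the anaphase-promoting complex in late mitosis and G1. It stood at 71.9, 75.5 and 84.3 CPM in vehicle 1, 2 and 3 and 87.0, 114 and 136 CPM in DEK 1, 2 and 3, higher with DEK in 3 of 3 replicates, by 0.52 ± 0.10 log2 (edgeR adjusted p = 0.0306 with the block). In replicates 1 and 2 alone with the block, 14 of the 85 were called higher and 0 lower (2.37% and 2.27% of all genes), and without the block 1 was called higher, Espl1, and 0 lower (1.22% of all genes called). In replicate 3, Fzr1 and Pttg1 of the called genes were above 0, at 0.69 and 0.08 log2. The other called genes lay below 0 in replicate 3, so leaving it out was bound to raise their values, as for the members.

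Genes of the G1/S transition and DNA replication (42 genes) had 0 calls with and without the block, and medians of 0.08, 0.24 and -0.18. The same sequence of directions was shown by 26 of 42 (61.9%). The smallest p within this list belonged to Gins2, a subunit of the replicative helicase, at 0.32 ± 0.12 log2 with the block (edgeR adjusted p = 0.283), whose exons overlap Gse1 on the other strand, and to Fen1, a flap nuclease, at 0.26 ± 0.10 (adjusted p = 0.317). CDK inhibitors and quiescence genes (15 genes) also had 0 calls, with medians of -0.01, -0.09 and 0.25, and 1 of 15 had the members' sequence of directions. The list also holds the D-type cyclin genes Ccnd1, Ccnd2 and Ccnd3, which are neither. In replicate 3 these were at 0.42, 0.48 and 0.12 log2, and 11 of the 15 genes were above 0. Cdkn1a, the p21 inhibitor, was at 0.43 ± 0.13 (edgeR adjusted p = 0.186 with the block) and Cdkn2d, the p19 inhibitor, at 0.27 ± 0.09 (adjusted p = 0.237). Both were higher with DEK in 3 of 3 replicates, and neither passed the test.

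**Figure D5:**
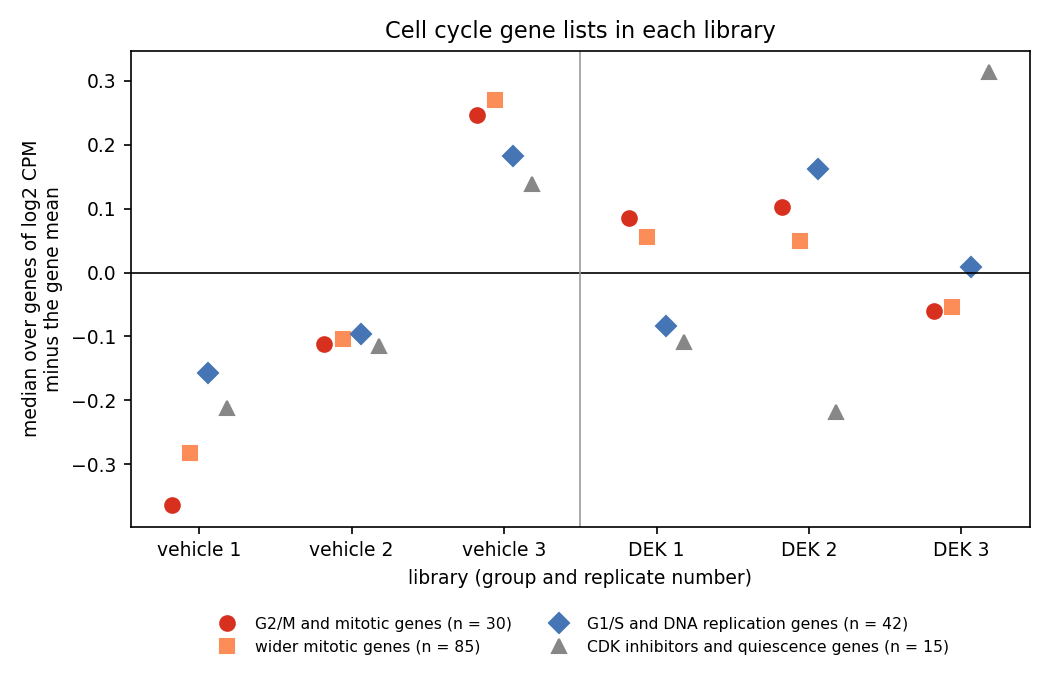
Median over genes of log2 CPM minus the gene's mean (vertical axis) for 4 cell cycle lists in each of the 6 libraries (horizontal axis). The members and the wider mitotic genes lie lowest in vehicle 1 and highest in vehicle 3, and are slightly above 0 in DEK 1 and 2 and slightly below in DEK 3.

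Of the marker lists, that of primary granules of early granulocyte precursors (7 genes) had medians of 0.00, 0.33 and -0.31 log2 in replicates 1, 2 and 3, with sums from 7282 CPM in DEK 3 to 10597 CPM in DEK 2. Eosinophil markers (9 genes) summed to 14336, 12978 and 4736 CPM in vehicle 1, 2 and 3 and 11209, 8141 and 3391 CPM in DEK 1, 2 and 3, lower with DEK in each replicate. Mast cell and basophil markers (8 genes) summed to 3605, 3651 and 1639 CPM in vehicle 1, 2 and 3 and 2778, 2428 and 2045 CPM in DEK 1, 2 and 3. The sum was lower with DEK in replicates 1 and 2 and higher in replicate 3. In replicate 3, however, the median difference over the 8 genes was -0.02 log2, with 3 above 0. The higher sum there went with Hdc, at 346 CPM in vehicle 3 and 773 CPM in DEK 3. Erythroid markers summed to 802 to 1071 CPM in replicates 1 and 2, to 2357 CPM in vehicle 3 and to 3709.8 CPM in DEK 3, with Hba-a1, Hbb-bs and Hbb-bt at 0 in all 6 libraries. B-lineage markers summed to 138 and 177 CPM in vehicle 3 and DEK 3 and to 392 to 464 CPM in the other 4. The part of these markers in the levels of the mitotic genes was not tested.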

How the data were processed

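Polyadenylated RNA of 6 libraries was sequenced, 3 per group. Per the file headers, the authors made the deposited values, raw read counts per gene, with featureCounts 1.6.1 on mm10 exons summed per gene, from lane 6, with no option for strand, read pairs or reads in more than 1 gene; such reads were not counted. The exon length per gene in the deposited table was used for RPKM only. The submitters' processing notes also name Trim Galore, STAR, HTSeq and edgeR, whose versions are not given in the sources used here.

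The counts were tested in R 4.3.3 with edgeR 4.0.16 (filterByExpr, TMM, robust quasi-likelihood, two-sided, Benjamini-Hochberg over all 13803 genes, no block), with alternatives in limma 3.58.1 and DESeq2 1.42.0. Scripts were tested on simulated data. Log2 CPM uses a prior count of 2, and SEs come from the F statistic. Coordinates are outer exon bounds in the table. Intervals at the 95% level cover counting error only, since reads carry no molecular identifiers; members took 0.215% to 0.353% of counts per library. Near-identical copies (at least 95% identity over at least 100 bases) were found with BLAST 2.17.0 in GENCODE M21 transcripts.

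The labels do not say what equal replicate numbers share. The correlation across genes of deviations from the group mean was 0.55, 0.56 and 0.80 for equal numbers 1, 2 and 3, each above 0.1, so by rule the numbers were taken as pairs. Unequal numbers also reached 0.52 (vehicle 2 with DEK 1) and 0.41 (vehicle 1 with DEK 2), above 0.1 as well. The rule therefore cannot tell how libraries 1 and 2 of the groups match, and the blocked fits rest on that match. Members and lists were chosen with earlier results of these data known. Named by rule were 14 core members, those called in either fit (0), and the 3 highest and 3 lowest with the block; of the other lists, called genes, or otherwise the 2 smallest p. Lineage-positive cells, which the series' design mentions, were not analysed here.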

Additional observations from a re-analysis of the deposited data

How the results depend on the processing

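The count of 0 members called held with the replicate block, DESeq2, limma-voom, RLE, total counts and no filter on low counts, and ran from 0 to 10 when libraries were left out, the 10 being those of replicates 1 and 2 with the block. The median log2 fold change of the 30 genes stayed between 0.08 and 0.12 under the same 6 alternatives and ran from -0.04 to 0.31 when libraries were left out, highest without replicate 3. The replicate block changed no call of a member, while in other lists it added Fzr1 and 8 markers, Lcn2, Epx, Prg3, C1qb, C1qc, Cx3cr1, Ly6c2 and Mertk. With total counts as the scale, which moved the median of all genes in replicate 3 by -0.10, the members' medians in replicates 1, 2 and 3 were 0.46, 0.24 and -0.41, and with upper quartiles 0.41, 0.24 and -0.36. Of the 30 single log2 fold changes, none of them called, 4 changed sign with the replicate block and with limma-voom, to 0.13 and 0.11 for Mki67, 0.14 and 0.18 for Cenpe, 0.00995 and 0.0372 for Cenpf, and 0.0339 and 0.0536 for Kif20b. The cause was not tested. When libraries were left out, 18 changed sign, from the lowest to the highest value as follows: Anln (-0.0204 to 0.30), Birc5 (-0.00892 to 0.40), Bub1 (-0.24 to 0.19), Ccna2 (-0.0557 to 0.32), Cdc25c (-0.0751 to 0.26), Cenpe (-0.47 to 0.85), Cenpf (-0.33 to 0.46), Cks2 (-0.58 to 0.15), Dlgap5 (-0.15 to 0.32), Hmmr (-0.26 to 0.25), Kif11 (-0.22 to 0.21), Kif20b (-0.23 to 0.38), Kif23 (-0.29 to 0.19), Mki67 (-0.65 to 0.97), Nusap1 (-0.16 to 0.31), Top2a (-0.0702 to 0.30), Tpx2 (-0.13 to 0.30) and Ttk (-0.13 to 0.31). Leaving out both libraries of a number without the block was chosen after seeing the data. With 1 or 2 libraries left out, the test rests on 4 or 5 libraries. Depth limited Cks2 most, at 58 counts in its lowest library.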
